A study of Mus musculus with 47 samples.

Results

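The proteasome subunit genes of single fast muscle fibres were examined in C2KO and WT mice. Members were all gene names in the count files that begin Psma, Psmb, Psmc, Psmd, Psme or Psmg followed by a digit, which gave 49 of 24421 genes. By prefix, 19 encoded the 20S catalytic core (Psma and Psmb), 20 the 19S regulatory particle (Psmc and Psmd) and 9 the activators and assembly chaperones (Psme and Psmg). The remaining member, Psmc3ip, shares the prefix of the 19S ATPase genes but encodes a meiotic recombination factor, so it was kept out of the class counts.

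C2KO mice lack fast myosin binding protein-C because a Neo cassette flanked by LoxP sites took the place of a run of Mybpc2 exons, and WT mice had the intact gene. Both groups were FVB/N mice aged 2 to 3 months, and their extensor digitorum longus (EDL) muscles were digested with collagenase into single fibres, each of which was sequenced on its own. The 20 C2KO fibres came from 2 mice and the 27 WT fibres from 3 mice, and the labels tie no fibre to a mouse. Fibres were therefore summed into the largest sets that the labels separate, namely C2KO pools 740 and 2445 (10 fibres each, by the prefix of the fibre name) and WT pools 1, 2 and 3 (10, 10 and 7 fibres, by sequencing run); pool values are listed in this order. P-values measure only the spread between these 5 pools, which may be technical.

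The proteasome is the cell's main protease for proteins tagged with ubiquitin. Its barrel, the 20S core, stacks outer rings of alpha subunits (Psma) around inner rings of beta subunits (Psmb), some of which carry the catalytic sites; the 19S cap recognises ubiquitin, unfolds the substrate with a ring of ATPases (Psmc) and feeds it into the barrel. In skeletal muscle this system removes myofibrillar proteins during turnover and wasting.

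Fibres held between 7648762 and 10517887 gene counts in C2KO and between 7769593 and 14606631 in WT. Mybpc2 was found at 2.61 to 47.6 CPM (gene counts scaled by the total of the fibre) in C2KO fibres, against 6563 to 11556 CPM in WT fibres, so no fibre went against its label (log2 fold change -8.55, SE 0.14, edgeR quasi-likelihood adjusted p = 6.4e-06). All 10 listed muscle fibre genes had counts in every pool, and their summed level was 280263 to 368316 CPM in C2KO fibres and 309962 to 349488 CPM in WT fibres. Pool 740 stood apart in markers of other cells. Summed over the 12 fibroblast markers, its fibres had 16.9 to 5372 CPM, those of pool 2445 had 21.4 to 412 CPM and WT fibres had 26.3 to 464 CPM. The values above every other pool lay in fibres 740-2, 740-5 and 740-8, at 1163, 5372 and 511 CPM. The sum of a typical fibre was mainly Smoc2, with fibre medians of 68.6 CPM in C2KO and 92.8 CPM in WT (log2 fold change -0.42). Gsn, the next marker, had medians of 1.04 and 1.59 CPM. WT pool 3 and 1 fibre of pool 740 were sequenced in run 0092. No other run held both genotypes, so outside it run and genotype cannot be told apart.

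Of the 49 members, 45 had enough counts to be tested. The 4 others were Psma8, the testis alpha subunit, and Psmb11, the beta subunit of the thymus cortex, both at 0 counts in all 47 fibres, and Psmb8 and Psmb9, catalytic subunits of the immunoproteasome, at 45 and 23 counts in all. A zero count allows a level of up to 3 counts in a fibre's total. Most tested members were among the better expressed genes of these fibres, with 33 of 45 at 50 CPM or more. Of all 12863 genes tested, 2124 were at that level. Together the 49 members took 0.571% and 0.562% of counts in the C2KO pools, against 0.523%, 0.554% and 0.546% in the WT pools.

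Per unit of transcript length, the core genes stayed within a narrow range. Among the 14 constitutive core genes the level ran from 61.7 to 224 RPKM in C2KO pools and from 55.2 to 220 RPKM in WT pools (mean of the pools, CPM per kilobase of exon), with Psma5, an alpha ring subunit, lowest and Psmb6, which carries the caspase-like site, highest in both. Psmb7, the trypsin-like catalytic subunit, came second with 197 RPKM in C2KO and 193 RPKM in WT. The 6 ATPase genes lay between 76.1 and 186 RPKM in C2KO and between 66.8 and 181 RPKM in WT, Psmc6 being lowest and Psmc3 highest. Psmd genes split in level: 3 of them, Psmd5, Psmd9 and Psmd10, encode chaperones that help assemble the 19S base and are not part of the finished particle, and these had 5.83 to 11.3 RPKM in C2KO and 6.02 to 11.5 RPKM in WT. The other 11 Psmd genes had 49.3 to 178 RPKM in C2KO and 49.2 to 165 RPKM in WT, with Psmd6, a scaffold subunit of the 19S lid, at the top in both. Activator and chaperone genes were lower than the barrel genes, the 5 Psme genes reaching 24.6 RPKM in C2KO and 23.99 RPKM in WT and the 4 Psmg genes reaching 28.8 RPKM in C2KO and 29.1 RPKM in WT.

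**Figure D1:**
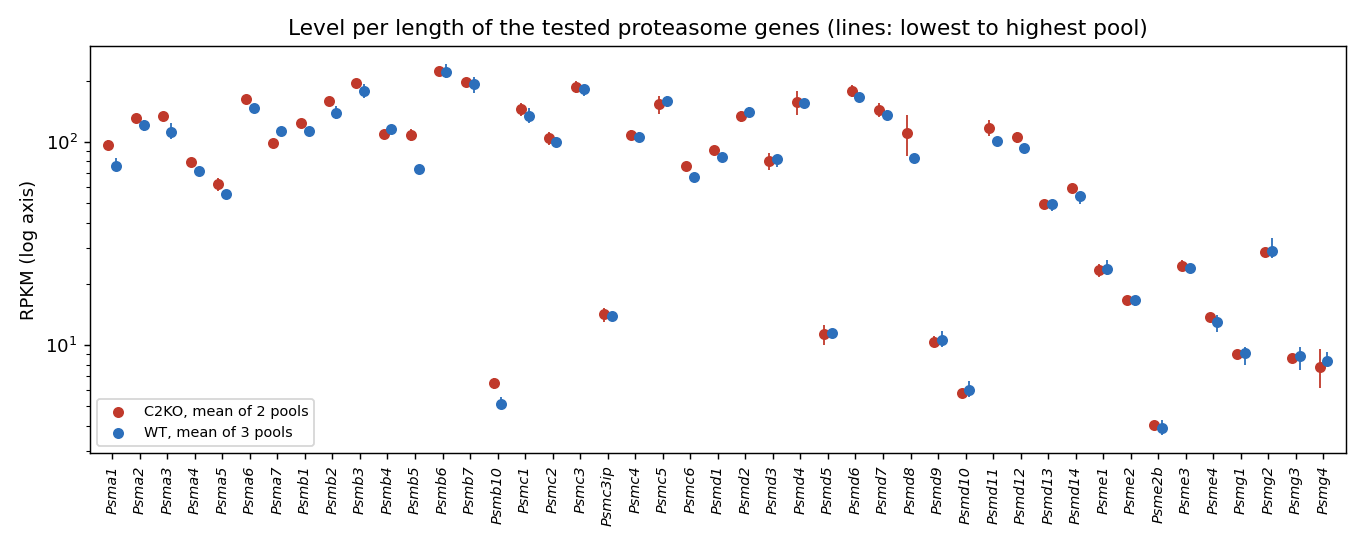
Level per length (RPKM, log axis) of the 45 tested proteasome genes, as the mean of 2 C2KO pools (red) and of 3 WT pools (blue), with lines from the lowest to the highest pool. Ring and cap genes sit mostly between 49 and 224 RPKM, whereas Psmb10, Psmd5, Psmd9, Psmd10 and most Psme and Psmg genes lie under 30 RPKM in both genotypes.

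No member passed the test for C2KO against WT (edgeR quasi-likelihood, Benjamini-Hochberg adjusted p under 0.05 and fold over 1.5), against 6 of 12863 genes tested (0.0466%), 3 higher and 3 lower in C2KO (0.0233% each). Limma-voom and DESeq2 called 0 members as well. At an unadjusted p under 0.05 edgeR gave 3 members, Psmb5, Psma1 and Psma3, all higher in C2KO, against 6.2% of all tested genes that were higher and 4.13% that were lower at that level. In TMM-scaled CPM the pools did not overlap for 17 members. Both C2KO pools lay above all 3 WT pools for 16 of 45 (35.6%) and below them for 1 (2.22%). Among all tested genes 13.1% were higher and 14.5% lower in this way. Restricted to genes of at least 50 CPM the shares over all genes were 16.4% and 13.2%, and 15 of the 33 members at that level lay higher. The members share libraries and runs, so their counts are not independent of each other.

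**Figure D2:**
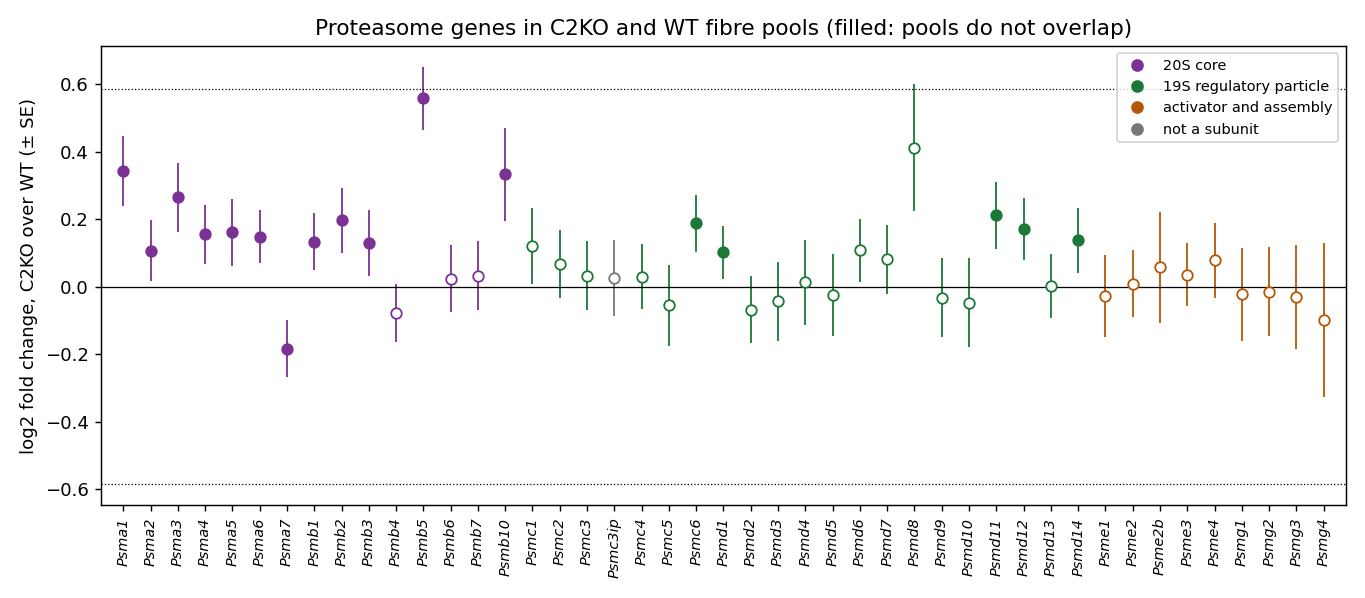
Log2 fold change, C2KO over WT, of the 45 tested proteasome genes with its SE from the edgeR fit on 5 pools, coloured by class. Filled points are genes whose pools do not overlap in TMM-scaled CPM, and dotted lines mark the fold threshold of 1.5. The 15 core genes have 11 filled points above 0 and 1 below (Psma7), and no gene passes the test.

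Pools parted for more core genes than cap genes, a difference in counts that was not tested. Of the 15 tested core genes, 11 were higher without overlap in TMM-scaled CPM (73.3%) and 1 was lower, and the median log2 fold change was 0.15. Not all of these parted the pools when fibres were scaled to their own totals only. Fibre medians in C2KO pool 2445 were then 116 CPM for Psma2, 127.1 for Psmb1, 126 for Psmb2 and 135 for Psmb3. Those in WT pool 3 were higher, at 125, 127.6, 129 and 141 CPM. For the 20 genes of the 19S particle, 5 were higher without overlap (25%) and none lower, with a median of 0.05. None of the 9 activator and assembly genes parted the pools, and their median was -0.01, beside -0.00038 over all tested genes. Summed over the class, core genes had 1909.55 and 1991 CPM in the C2KO pools, against 1718, 1774 and 1900.3 CPM in the WT pools. The lower C2KO pool thus lay just above the highest WT pool in these TMM-scaled values. With fibres scaled to their own totals only, the median core sum per fibre was 2001 and 1914 CPM in the C2KO pools. It was 1727, 1689 and 1945 CPM in the WT pools, so on that scale WT pool 3 lay above C2KO pool 2445. The 19S sums overlapped, with 3315 and 3686 CPM in the C2KO pools against 3290, 3472 and 3241 CPM in the WT pools.

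WT pool 3, sequenced in run 0092, was the highest of the WT pools for 11 of the 15 core genes and the lowest for 12 of the 20 cap genes. Among all 12863 genes tested it was the highest for 4327 and the lowest for 4526. Among the 2124 genes of at least 50 CPM it was so for 787 and 640. The ratio of core to cap counts was likewise highest in WT pool 3. It was 0.576 and 0.540 in the C2KO pools, against 0.522, 0.511 and 0.586 in the WT pools. The ratio of C2KO therefore lay inside the WT range and averaged 0.558 ± 0.026 in C2KO (SD, n = 2) and 0.540 ± 0.041 in WT (SD, n = 3). By fibre, its median was 0.573 in pool 740 and 0.545 in pool 2445, against 0.516, 0.494 and 0.599 in the WT pools. Within run 0092 the single C2KO fibre had a ratio of 0.633, against 0.528 to 0.620 in the 7 WT fibres. That fibre lay above all 7 WT fibres for 4 of 15 core genes and below them for none, and it lay above for 1 and below for 5 of the 20 cap genes, where 14.5% of all tested genes lay above and 14.7% below. Over the 15 core genes the median log2 fold change was 0.12 in run 0092 alone, where that of all genes was -0.056, and 0.12 with run as a term in a fit on fibres, where that of all genes was -0.053. Both values rest on the 1 C2KO fibre of that run. Counting Psmb8, which had enough counts to enter the fit with run, the core median there was 0.084.

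**Figure D3:**
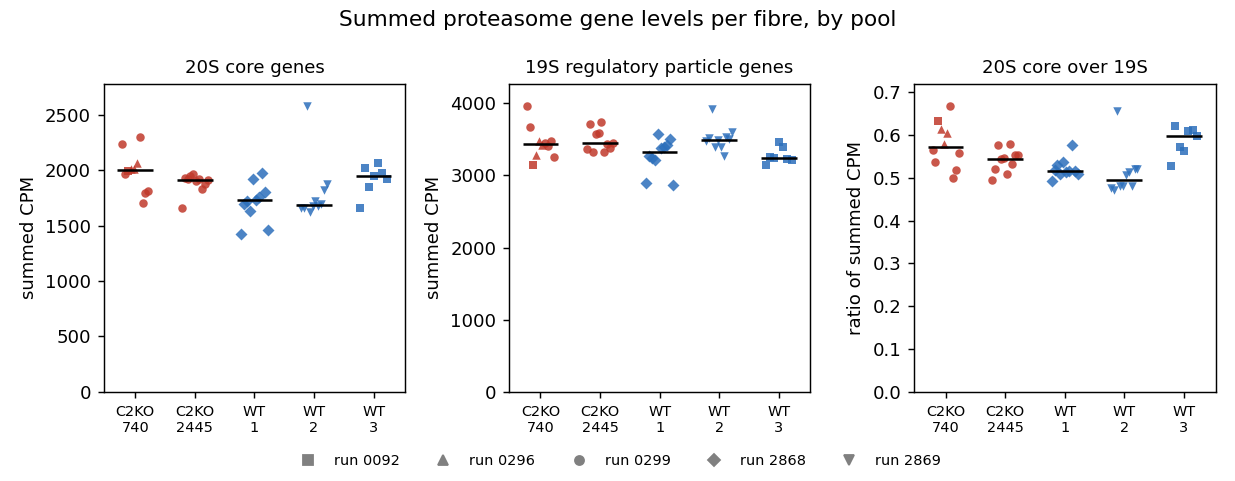
Summed CPM per fibre of the core genes (left) and the 19S genes (middle) and their ratio (right), for 2 C2KO pools (red) and 3 WT pools (blue); each point is a fibre, its shape the sequencing run and the line the pool median. The ratio of WT pool 3 (median 0.599) lies above both C2KO pools (0.573 and 0.545), and 1 fibre of WT pool 2 reaches 2574 CPM in core genes.

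Of the 7 tested alpha ring genes, 6 had both C2KO pools above every WT pool in TMM-scaled CPM and 1 had both below. Psma1 had 114 and 128 CPM in the C2KO pools, against 91.0, 91.9 and 104 CPM in the WT pools (log2 fold change 0.34, SE 0.10, edgeR adjusted p = 0.418). Every C2KO fibre lay above the WT median for this gene, and 7 of 20 lay above every WT fibre, the fibres ranging from 100.2 to 163 CPM with a median of 118 in C2KO and from 67.6 to 121 CPM with a median of 95.4 in WT. Psma3 had 187 and 194 CPM in the C2KO pools, against 153, 146 and 175 CPM in the WT pools (log2 fold change 0.26, SE 0.10, adjusted p = 0.468). Its C2KO fibres too all lay above the WT median, and fibre 740-12 held 294 CPM where no other C2KO fibre passed 199 CPM. Both genes encode structural subunits of the outer ring, which gates the barrel.

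In run 0092 the differences in those genes were smaller than between the pools. The C2KO fibre had 111 CPM of Psma1 and 187 CPM of Psma3, inside the WT ranges of 82.4 to 121 and 169 to 198 CPM in that run, and the fit with run as a term gave log2 fold changes of 0.12 for both. Psma2, Psma4, Psma5 and Psma6 were higher without overlap as well in TMM-scaled CPM, by 0.11 to 0.16 on the log2 scale. Psma6, the alpha subunit with the highest level per length, had 163 and 161 CPM in the C2KO pools and 144, 143 and 150.4 CPM in the WT pools (log2 fold change 0.15, SE 0.08, adjusted p = 0.559), and in run 0092 alone it was at 0.015.

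Psma7 went the other way. It had 153 and 162 CPM in the C2KO pools, against 172, 177 and 187 CPM in the WT pools (log2 fold change -0.18, SE 0.08, edgeR adjusted p = 0.516). Only 3 of 20 C2KO fibres exceeded the WT median of 175 CPM, and its log2 fold change was below 0 in all 16 alternative analyses, between -0.22 and -0.10. Psma7 encodes another structural subunit of the same ring.

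Among the beta genes the one with the largest difference was Psmb5, which encodes the subunit with the chymotrypsin-like site. Its level was 87.7 and 100.3 CPM in the C2KO pools, against 63.8, 63.9 and 63.7 CPM in the WT pools. The WT pools hardly differed while both C2KO pools stood above them (log2 fold change 0.56, SE 0.09, edgeR adjusted p = 0.262). Fibres held 60.6 to 115 CPM with a median of 97.9 in C2KO and 49.8 to 100.1 CPM with a median of 62.6 in WT, and 19 of 20 C2KO fibres lay above the WT median. Inside run 0092 the C2KO fibre had 103 CPM, against 49.8 to 74.1 CPM in the 7 WT fibres. The difference kept its direction in all 16 alternatives, from 0.46 to 0.72, and in DESeq2 its adjusted p was 6.2e-06 with a log2 fold change of 0.57, under the fold threshold; over the 16 the adjusted p ran from 8.39e-09, in the fit that takes fibres of a mouse as replicates, to 0.848 without WT pool 2. Of the 871 exon bases of Psmb5, 109 overlap the microRNA gene Mir686 on the same strand.

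The pools of both other constitutive catalytic genes overlapped. Psmb6 had 225 and 238 CPM in the C2KO pools, against 212, 223 and 249 CPM in the WT pools (log2 fold change 0.02, SE 0.10, adjusted p = 0.956). Psmb7 had 187 and 195 CPM in the C2KO pools, against 169, 189 and 202 CPM in the WT pools (log2 fold change 0.03, SE 0.10, adjusted p = 0.940). Per length, the lowest of the 7 constitutive beta genes was Psmb5, with 108 RPKM in C2KO and 73.3 RPKM in WT, so that the spread from lowest to highest beta gene was 2.07-fold in C2KO and 3.00-fold in WT. Psmb2, a structural beta subunit, was higher without overlap in TMM-scaled CPM. It had 133 and 135 CPM in the C2KO pools against 109, 114 and 127 CPM in the WT pools (log2 fold change 0.20, SE 0.10, edgeR adjusted p = 0.532). On that scale Psmb1 and Psmb3 were higher without overlap as well, at 0.13 each. Psmb4 was at -0.08 with overlapping pools.

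**Figure D4:**
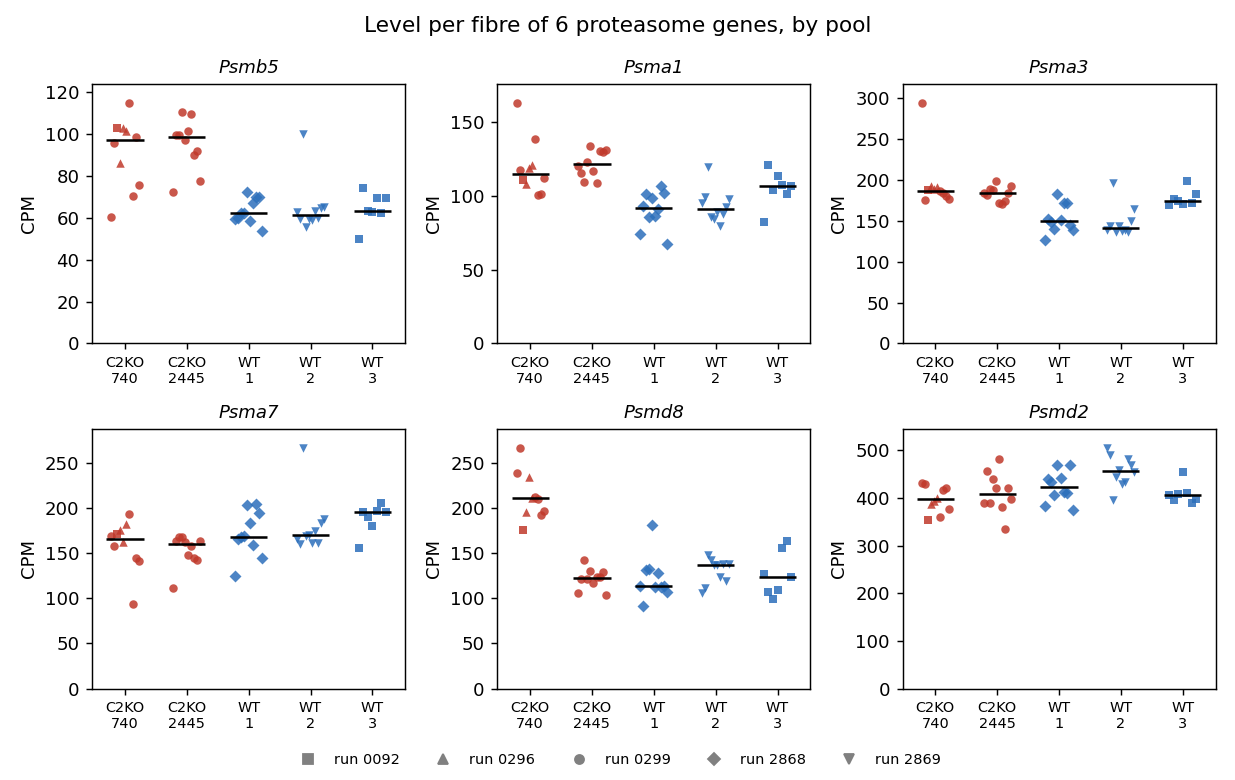
CPM per fibre of 6 proteasome genes in C2KO pools 740 and 2445 (red) and WT pools 1 to 3 (blue); each point is a fibre, its shape the sequencing run and the line the pool median. Psmb5, Psma1 and Psma3 sit higher in both C2KO pools, Psma7 sits lower, Psmd8 is high in pool 740 alone (176 to 267 CPM) and Psmd2 overlaps throughout.

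Of the inducible catalytic subunits, Psmb8 and Psmb9 had few counts. In the immunoproteasome Psmb8, Psmb9 and Psmb10 replace the products of Psmb5, Psmb6 and Psmb7. Psmb8 had 33 and 8 counts in the C2KO pools, against 1, 3 and 0 counts in the WT pools, beside 38223 counts of Psmb5 in all pools, so it made 0.391% of the pair in pool 740 (exact 95% interval 0.269 to 0.549%) and 0.0833% in pool 2445 (0.0360 to 0.164%), where all 8 counts came from 1 fibre and the other 9 had 0. Psmb9 had 15 and 0 counts in the C2KO pools, against 3, 2 and 3 in the WT pools. Of the 33 Psmb8 counts in pool 740, 29 came from fibres 740-2 and 740-5, as did 13 of its 15 Psmb9 counts, and these were the fibres highest in fibroblast and endothelial markers. These intervals cover counting error only.

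Psmb10 differed from that pair in being present in every fibre. It had 8.75 and 7.69 CPM in the C2KO pools, against 6.39, 6.12 and 7.08 CPM in the WT pools, and the pools did not overlap (log2 fold change 0.33, SE 0.14, edgeR adjusted p = 0.486). It made up 4.47% and 3.79% of the Psmb10 and Psmb7 counts in the C2KO pools, against 3.64%, 3.14% and 3.38% in the WT pools. Its fibre 740-5 value of 12.2 CPM was the highest of all, and without fibres 740-2 and 740-5 its log2 fold change was 0.31. In run 0092 alone it was 0.67, from 11.1 CPM in the C2KO fibre and 4.50 to 10.9 CPM in the 7 WT fibres. The 12 endothelial markers summed to 0 to 111 CPM in pool 740, 0 to 11.9 CPM in pool 2445 and 0 to 4.82 CPM in WT fibres, and 3 of them (Kdr, Emcn and Vwf) were too low to test; the 12 leukocyte markers summed to at most 37.4 CPM in C2KO and 4.85 CPM in WT. Their part in the Psmb10 difference was not tested beyond that omission.

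Promoters of 4 members are shown to set a core gene that parted the pools beside one that did not, and likewise for the cap. They are the RefSeq windows of GRCm38.p6 from 250 bases before to 50 after the start site, written 5′ to 3′ on the strand of the gene. Capitals mark TGACNNNGC, the core of the antioxidant response element bound by the proteasome gene activator Nfe2l1 and by Nfe2l2, CCGGAAG, the core of ETS factor sites, and GGGCGG, the GC box, on either strand. Psmb5 (chr14:54617946-54618245, minus strand) was higher without overlap and Psmb6 (chr11:70525107-70525406, plus strand) was not; Psmd12 (chr11:107479278-107479577, plus strand) was higher without overlap and Psmd8 (chr7:29180624-29180923, minus strand) was high in 1 C2KO pool.
Psmb5: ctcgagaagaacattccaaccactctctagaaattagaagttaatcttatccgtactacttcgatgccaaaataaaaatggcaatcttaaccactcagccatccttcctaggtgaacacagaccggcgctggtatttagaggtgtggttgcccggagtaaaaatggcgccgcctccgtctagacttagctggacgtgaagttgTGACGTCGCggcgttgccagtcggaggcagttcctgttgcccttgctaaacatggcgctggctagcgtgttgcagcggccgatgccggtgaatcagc
Psmb6: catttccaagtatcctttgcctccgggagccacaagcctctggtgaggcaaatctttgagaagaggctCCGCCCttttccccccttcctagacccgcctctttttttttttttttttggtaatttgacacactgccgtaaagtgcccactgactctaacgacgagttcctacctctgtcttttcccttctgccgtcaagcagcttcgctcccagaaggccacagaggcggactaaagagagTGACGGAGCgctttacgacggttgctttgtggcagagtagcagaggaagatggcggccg
Psmd12: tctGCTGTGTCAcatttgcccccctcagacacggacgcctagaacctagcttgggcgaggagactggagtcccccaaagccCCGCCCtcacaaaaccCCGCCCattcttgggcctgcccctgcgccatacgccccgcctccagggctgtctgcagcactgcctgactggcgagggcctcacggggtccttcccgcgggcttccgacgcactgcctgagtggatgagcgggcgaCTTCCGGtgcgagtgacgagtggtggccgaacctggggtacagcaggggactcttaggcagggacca
Psmd8: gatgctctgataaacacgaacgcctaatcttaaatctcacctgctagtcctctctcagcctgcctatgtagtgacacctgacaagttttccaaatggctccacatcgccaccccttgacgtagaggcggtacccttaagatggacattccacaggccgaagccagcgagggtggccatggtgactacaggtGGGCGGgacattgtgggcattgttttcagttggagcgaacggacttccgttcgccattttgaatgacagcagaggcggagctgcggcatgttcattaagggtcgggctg
In Psmb5 and in Psmb6 the TGACNNNGC match begins 47 and 9 bases before the start site, on the strand of the gene, so the catalytic genes with the largest and with the smallest difference both hold one. Psmd12 holds one 247 bases before its start, on the opposite strand, and a CCGGAAG match 17 bases before it.

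Of the 49 members, 41 had a window, 44 windows in all. TGACNNNGC was in 13.6% of the member windows and in 12.4% of all 32851 windows. All windows take in genes without counts in these fibres. Shares over expressed genes alone were not counted, so a difference need not be particular to proteasome genes. CCGGAAG was in 36.4% of the member windows and in 8.86% of all windows, and by class it was in 1 of 16 core windows, 10 of 18 cap windows and 4 of 9 activator and assembly windows. GGGCGG was in 54.5% of member windows and in 35.7% of all, TGAGNNNGC, the other antioxidant response element core, in 31.8% and 17.6%, CCAAT, bound by NF-Y, in 34.1% and 37.4%, and the core of the interferon-stimulated response element in 11.4% and 3.44%. Matches of different motifs can share bases. TGAGNNNGC was in 8 of the 15 windows of members that were higher without overlap and in 6 of the 26 windows of other tested members. Both windows of Psma6 are among those 8. The other motifs went both ways between those sets. TGACNNNGC was in 20% and 11.5% of their windows and CCAAT in 40% and 26.9%. CCGGAAG was in 26.7% and 46.2%, GGGCGG in 53.3% and 57.7%, and the interferon-stimulated core in 6.67% and 15.4%. By class, TGAGNNNGC was in 37.5% of core, 33.3% of cap and 11.1% of activator and assembly windows. The motifs were chosen by their known binders and searched after the levels were known, and a match is a description and not a site.

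The regulatory particle was led by a gene that parted 1 C2KO pool from all others. Psmd8, a lid subunit on chromosome 7, had 205 and 129 CPM in the C2KO pools, against 123, 129 and 125 CPM in the WT pools (log2 fold change 0.41, SE 0.19, edgeR adjusted p = 0.514). All 10 fibres of pool 740, at 176 to 267 CPM, lay above every fibre of pool 2445, at 104 to 142 CPM, and 9 of them above every WT fibre, at 91.5 to 181 CPM. The gene was high in pool 740 in each of its runs, with 176 CPM in run 0092, 196 to 235 CPM in its next run and 192 to 267 CPM in the run that it shares with all of pool 2445. Without pool 2445 Psmd8 passed the test (log2 fold change 0.72, adjusted p = 0.0284, range over its 16 alternatives 0.000697 with fibres as units to 0.944), where 2.33% of genes were called higher and the lone C2KO pool was assumed to vary like the WT pools, and without pool 740 its log2 fold change was 0.04. The targeted gene Mybpc2 lies on the same chromosome, 15321 kb from Psmd8, and a part of this position in the levels was not tested. Psmc4, an ATPase gene on that chromosome, had 146 and 165 CPM in the C2KO pools, against 150.5, 161 and 145 CPM in the WT pools. Of the other members there, Psma1 was higher without overlap (log2 fold change 0.34) and Psmd13 was at 0.003 with overlapping pools.

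In the TMM-scaled pool values most other cap genes were lower in pool 740 than in pool 2445. Pool 740 lay below pool 2445 for 18 of the 20 cap genes, by a median of -0.19 on the log2 scale, and for 12 of the 15 core genes by a median of -0.05. Among all genes tested 49% lay lower in pool 740 (median 0.0089), and among those of at least 50 CPM 62.1% did (median -0.054). The muscle fibre genes lay lower in 8 of 10 (median -0.23) and all 12 fibroblast markers lay higher (median 3.78). Their part in the cap difference was not tested. With fibres scaled to their own totals only, the pools did not differ in this way. The median 19S sum per fibre was then 3434 CPM in pool 740 and 3442 CPM in pool 2445. The median core sum was higher in pool 740, at 2001 CPM against 1914 CPM. Psmd4, a ubiquitin receptor of the cap, had 182 and 238 CPM in the C2KO pools, against 209, 213 and 201 CPM in the WT pools (log2 fold change 0.01, SE 0.13, adjusted p = 0.983). The WT values lay between the C2KO pools, and the same held for Psmc5, an ATPase, with 175 and 216 CPM in the C2KO pools against 205, 215 and 188 CPM in the WT pools (log2 fold change -0.05, SE 0.12, adjusted p = 0.908). Psmc3, the ATPase with the highest level per length, had 283 and 324 CPM in the C2KO pools and 274, 303 and 313 CPM in the WT pools (log2 fold change 0.03, SE 0.10). In run 0092 alone Psmc3 was at -0.24 and Psmd4 at -0.23. Psmd6 had 214 and 247 CPM in the C2KO pools and 210, 219 and 213 CPM in the WT pools (log2 fold change 0.11, SE 0.09, adjusted p = 0.718).

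In 5 cap genes both C2KO pools lay above WT in TMM-scaled CPM. With fibres scaled to their own totals only, Psmd1 and Psmd14 had fibre medians of 287 and 87.8 CPM in C2KO pool 2445. Those of WT pool 2 were higher, at 290 and 88.4 CPM. Psmd11, a lid scaffold subunit whose abundance raises assembly of the capped particle in human stem cells, had 187 and 223 CPM in the C2KO pools, against 177, 179 and 174 CPM in the WT pools (log2 fold change 0.21, SE 0.10, edgeR adjusted p = 0.519). For this gene 19 of 20 C2KO fibres exceeded the WT median. Psmc6, an ATPase, was at 0.19 (SE 0.08), Psmd12, a lid scaffold subunit, at 0.17 (SE 0.09) and Psmd14, the deubiquitinase of the lid, at 0.14 (SE 0.10), with adjusted p of 0.505, 0.563 and 0.653. In run 0092 alone Psmd14 turned to -0.15 and Psmd12 was at 0.07. Psmd1, a large scaffold subunit of the base, was at 0.10 (SE 0.08). Psmd2, the other large scaffold subunit, had 382 and 435 CPM in the C2KO pools, against 426, 453 and 405 CPM in the WT pools (log2 fold change -0.07, SE 0.10). None of the 3 assembly chaperones in this prefix parted the pools.

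**Figure D5:**
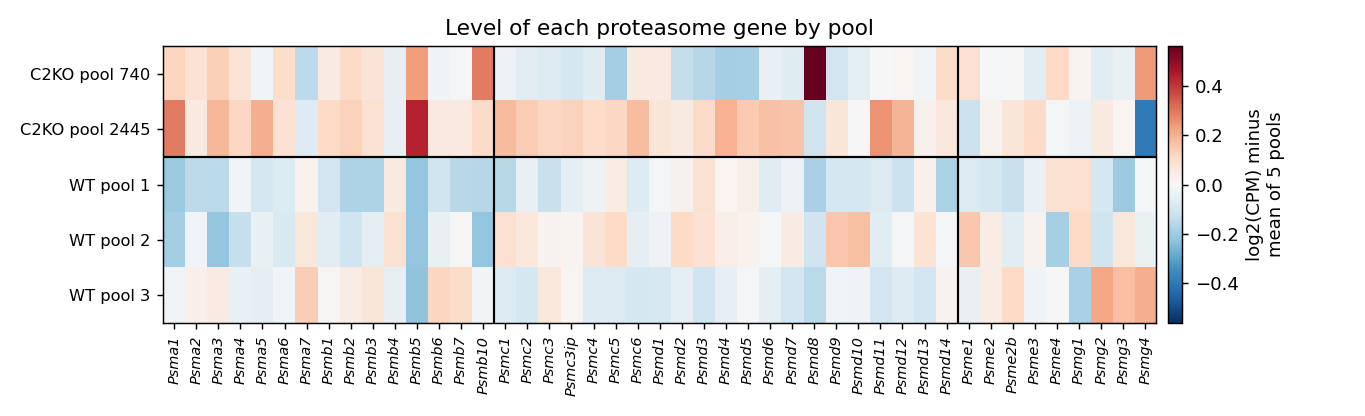
Level of the 45 tested proteasome genes by pool, as log2 of TMM-scaled CPM minus the mean of the 5 pools. C2KO pools are above WT pools and black lines part the classes (Psmc3ip is drawn with the 19S genes). Core genes are mostly red in both C2KO pools, 18 of 20 cap genes are lower in pool 740 than in pool 2445, with Psmd8 and Psmd14 the exceptions, and WT pool 3 is redder than WT pools 1 and 2 in several core genes.

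Pools overlapped for every alternative activator and assembly chaperone. Psme1 and Psme2 encode the interferon-inducible PA28 cap, and Psme1 had 24.4 and 21.1 CPM in the C2KO pools, against 21.7, 25.5 and 22.3 CPM in the WT pools (log2 fold change -0.03, SE 0.12). Psme2 was at 0.01 (SE 0.10), but its transcript is 99.4% identical over 794 aligned bases to that of Psme2b, so reads of the pair may have been split between them and both values are uncertain. Psme3, the nuclear form of the cap, had 60.6 and 68.3 CPM in the C2KO pools, against 61.8, 64.3 and 62.4 CPM in the WT pools (log2 fold change 0.04, SE 0.09). Psme4, the large PA200 activator of nuclei, was at 0.08 (SE 0.11) with 91.9 and 84.5 CPM in the C2KO pools against 90.3, 74.9 and 85.4 CPM in the WT pools. The 4 chaperones that help build the alpha ring were Psmg1 at -0.02 (SE 0.14), Psmg2 at -0.01 (SE 0.13), Psmg3 at -0.03 (SE 0.15) and Psmg4 at -0.10 (SE 0.23), with 2267 to 15270 counts in all fibres.

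The relation of core and cap sums across fibres was closest in WT pool 1 and weaker in the other pools. Pearson's r of the summed CPM was 0.41 in C2KO pool 740 and 0.40 in C2KO pool 2445 (10 fibres each), against 0.93, 0.89 and 0.61 in WT pools 1, 2 and 3 (10, 10 and 7 fibres), and Spearman's rho was 0.21 and 0.32 in those C2KO pools and 0.94, 0.67 and 0.64 in those WT pools. Leaving out the 2 fibres farthest from the median core sum gave 0.58 and 0.32 in the C2KO pools, and 0.79, 0.24 and 0.08 in the WT pools. The r of WT pools 2 and 3 fell most, WT pool 3 being left with 5 fibres. Leaving out the extreme fibres narrows the range, which can lower r by itself. The drop therefore does not tell how far the relation rests on those fibres. Without its fibre of 2574 CPM in core genes alone, WT pool 2 had an r of 0.52. Apart from pool 740, with fibres in 3 runs, the fibres of a pool share a run; all are scaled to their own totals, and these values describe the libraries.

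Genes around the proteasome were read from lists drawn up by function. Of 30 genes that supply ubiquitin or bind and build the particle, 20 had a positive log2 fold change (66.7%, against 49.9% of all genes tested), and none passed the test (median 0.05). Pools parted upward for 4 of them (13.3%), a share near the 13.1% of all genes, and downward for none. Usp14, the deubiquitinase bound to the cap, had 86.1 and 89.5 CPM in the C2KO pools, against 72.8, 73.8 and 74.1 CPM in the WT pools (log2 fold change 0.26, SE 0.08, edgeR adjusted p = 0.423). In run 0092 alone that value was -0.06, with the sign turned. Txnl1, a thioredoxin of the cap, was at 0.20 (SE 0.10), Zfand5, a proteasome activator induced in wasting muscle, at 0.18 (SE 0.08) and Pomp, the chaperone that closes the barrel, at 0.15 (SE 0.09). Zfand5 turned to -0.18 in run 0092 alone and Pomp to -0.01. Psmf1, the inhibitor PI31, was at 0.02 (SE 0.13).

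The listed regulators of proteasome genes, transcription factors together with genes that act on them, gave no common direction. Of 15 regulators, 3 were higher (20%) and 1 lower (6.67%) without overlap, where 13.1% and 14.5% of all genes were, and none passed the test (median 0.02). Nfe2l1, which raises proteasome gene expression when proteolysis is blocked, had 362 and 417 CPM in the C2KO pools, against 444, 441 and 374 CPM in the WT pools (log2 fold change -0.11, SE 0.12). Nfe2l2, its stress-responsive relative, had 127 CPM in each C2KO pool, against 95.7, 104 and 119 CPM in the WT pools (log2 fold change 0.26, SE 0.11, edgeR adjusted p = 0.504). Foxo1, a factor of muscle atrophy programmes, had 63.1 and 65.7 CPM in the C2KO pools, against 54.4, 37.5 and 46.5 CPM in the WT pools (log2 fold change 0.48, SE 0.16, adjusted p = 0.441). Maff, a small Maf partner of Nfe2l1 and Nfe2l2, was at 0.70 (SE 0.31, adjusted p = 0.504), and Nfyb, a subunit of the CCAAT factor NF-Y, was the gene lower without overlap, at -0.19 (SE 0.09).

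Peptides cut by the proteasome are presented by MHC class I, and 11 of the 12 genes on that list had a positive log2 fold change (91.7%, median 0.36), against 49.9% of all genes tested. Of these, 3 were higher without overlap (25%, against 13.1%) and none passed the test. Pool 740 lay above pool 2445 for 11 of the 12, by a median of 0.45 on the log2 scale. H2-K1, a class I heavy chain whose values were looked up after they were seen, had 14.9 and 4.39 CPM in the C2KO pools, against 4.38, 4.37 and 4.69 CPM in the WT pools. B2m, the light chain of class I, had 25.9 and 19.3 CPM in the C2KO pools, against 15.6, 14.1 and 17.4 CPM in the WT pools (log2 fold change 0.53, SE 0.16, edgeR adjusted p = 0.416). In fibres 740-2 and 740-5, highest in connective and vessel markers, B2m reached 43.2 and 58.8 CPM, and without them its log2 fold change was 0.34. Without pool 740 it was 0.30 and in run 0092 alone 0.17. Tap1, a peptide transporter, was at 0.93 (SE 0.46) on levels of at most 0.469 CPM in any pool, and Pdia3, a chaperone of class I loading, was at 0.30 (SE 0.12, adjusted p = 0.472), 0.16 without pool 740 and 0.086 in run 0092 alone. In fibre RNA a higher level in the fibre and RNA of attached cells cannot be told apart.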

How the data were processed

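Paired-end libraries of 20 C2KO and 27 WT single EDL fibres were used. Per the submitters' processing notes the tools were CASAVA 1.4, FastQC 0.11.2, HISAT2 2.0.5 and featureCounts 1.5.2 with build mm10. The deposited values are raw read counts per gene, which the authors obtained with featureCounts in its strand-specific mode; no source used here says whether the kit keeps strand, and counts of antisense neighbours (Psmc3ip and Mlx, Psma4 and AY074887, Psme1 and Emc9) may mix.

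Counts were summed into 5 pools of 56732442 to 131497320 counts, filtered with filterByExpr, scaled by TMM and tested with edgeR 4.0.16 (R 4.3.3; quasi-likelihood F-test, Benjamini-Hochberg over 12863 genes; called at adjusted p under 0.05 and fold over 1.5). Pool levels are TMM-scaled CPM, fibre levels are CPM of the fibre total, and RPKM divides pool CPM by exon length. The fit was tested on simulated data with 200 changed genes, where it recovered 64.2% of 1.5-fold and 100% of 2-fold changes. Recovery there needed an adjusted p under 0.05 in the right direction, without the fold cut. Every simulated gene had the same dispersion, and no pool, run or attached-cell effect was simulated. These shares therefore do not give the recovery to be had in the real pools. Pools are "non-overlapping" when both C2KO pools lie above, or both below, all WT pools.

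The members and gene lists were chosen with earlier results of these data known. Genes named are the catalytic, inducible, Psme and Psmg members; in the Psma, Psmb, Psmc and Psmd prefixes the 2 with the highest level per length and up to 3 with non-overlapping pools and the largest change; any member called in an alternative over pools; and Nfe2l1, Nfe2l2, Pomp, Psmf1, B2m and up to 3 non-overlapping genes of each partner list. Psmc4, Psmd1, Psmd2, Psmd13, Psmb1, Psmb3, Psmb4, Smoc2 and Gsn were added after their values were seen. Alternatives were limma-voom (limma 3.58.1), DESeq2 1.42.0, RLE scaling, totals without the 20 most abundant genes, no filter, no fold threshold, each pool left out, fibres as units with and without run, run 0092 alone and, chosen after seeing the data, pools without fibres 59_17717, or 740-2 and 740-5. Promoter windows come from RefSeq (GRCm38.p6).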

Additional observations from a re-analysis of the deposited data

Results flagged for a closer look

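Summed levels of the 3 classes and the core to cap ratio were examined in each of the 5 pools for a fibre far from the others, 20 sets in all, of which chance would mark about 1 in 20; 6 were marked. Of these, 4 belong to fibre 59_17717 of WT pool 2. Its core genes summed to 2574 CPM, where the next fibre had 1877 CPM. Its cap genes summed to 3921 CPM beside a next value of 3598 CPM, its activator and assembly genes to 290.1 CPM beside 247 CPM, and its ratio was 0.657 beside 0.522. The fibre was highest of all WT fibres for Psmb5 (100.1 CPM), Psmb6 (343 CPM) and Psma7 (266 CPM). In C2KO pool 2445 fibre 2445-11 was low in core genes, with 1660.4 CPM below a next value of 1829 CPM. In WT pool 1 fibre 54_17697 had a ratio of 0.577 above a next value of 0.538.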

How the results depend on the processing

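In simulated data without pool or run effects the fit recovered changes of 1.5-fold only in part. Its recovery in the real 2 C2KO and 3 WT pools is not known. Of 17 alternatives, 16 called 0 members. The exception was Psmd8 without C2KO pool 2445, a fit that leaves 1 C2KO pool (log2 fold change 0.72). The number of all genes called, 6, was 11 with no filter, 197 with DESeq2, 481 with fibres as units, 35 with fibres and run, 11 in run 0092 alone, 2 without fibre 59_17717, and 1 to 358 when a pool was left out, the highest without C2KO pool 2445. Non-overlapping members, 17, were 20 to 31 with a pool left out and 19 without fibre 59_17717. Fewer pools part more easily, and the share over all genes was not counted in these settings. The higher counts are therefore no result about the members. The core median was 0.084 with fibres and run, which adds Psmb8 (0.12 over the other 15), and 0.12 in run 0092 alone; when a pool was left out it was 0.13 to 0.17. The 19S median was -0.032 to 0.12, below 0 without C2KO pool 2445, and that of all members 0.018 to 0.12, highest without C2KO pool 740. The activator and assembly median, -0.014, was 0.17 in both of those run fits, where the median of all genes was -0.053 and -0.056; it was -0.041 to 0.033 with a pool left out. With fibres as units 0 members passed both thresholds, against 481 of 10156 genes tested, but fibres of a mouse are not independent. Maff passed there (0.74, adjusted p = 0.0251, range 0.0251 to 0.855). Of 638 values of named genes under alternatives, 566 were counted as unchanged and 70 moved by more than the spread between pools. Unchanged meant a move below that spread or, for Mybpc2 (-11.7 to -8.49), that it was still called in the same direction. The cause of the moves was not tested. No paired analysis was possible because numbers name fibres and pair none across genotypes.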
